A study of Mus musculus with 16 samples.

Results

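Glyceroneogenesis and glycerol handling were followed through 7 genes, of 22911 named genes on the array: Pck1 and Pck2, the cytosolic and mitochondrial phosphoenolpyruvate carboxykinases, Gpd1 and Gpd2, the cytosolic and mitochondrial glycerol-3-phosphate dehydrogenases, Gk, glycerol kinase, and Aqp7 and Aqp3, channels that pass glycerol as well as water. The genes were picked by name, as members of the pathway, and each was represented by its brightest probe. RNA came from brown adipose tissue (BAT) and gonadal white adipose tissue (gWAT) of male Adipo-Pgam1 KO mice, in which Cre recombinase under the adiponectin promoter (Adipoq-Cre) deletes floxed Pgam1 in adipocytes, and of littermate controls that carried the same floxed Pgam1 alleles without Cre. There were 4 arrays for each tissue and genotype, 16 in all, each read in 1 colour. The mice were 16 weeks old by the labels, except replicate 4 of the Adipo-Pgam1 KO mice, which was 14 weeks old in both tissues. The labels give the strain as C57BL/6NCrSlc and describe no diet or drug treatment other than normal chow. A value below is the log2 of a probe's intensity over the 75th percentile of its array, and levels of different genes are not compared because probes differ in brightness.

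Adipocytes store fat as triglyceride, which needs a glycerol-3-phosphate backbone. The backbone can be drawn from glycolysis, made from pyruvate by glyceroneogenesis, in which phosphoenolpyruvate carboxykinase draws oxaloacetate back to phosphoenolpyruvate and the lower steps of glycolysis run in reverse, or formed from free glycerol by glycerol kinase. Phosphoglycerate mutase, the enzyme encoded by Pgam1, catalyses one of these reversible lower steps. Glycerol kinase is known to be scarce in white adipocytes, which release the glycerol of lipolysis through AQP7, and more abundant in brown adipocytes. GPD1 and GPD2 together form the glycerol phosphate shuttle, which carries reducing equivalents from the cytosol to the respiratory chain and is known for its activity in BAT.

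The promoter sequences of 3 genes are shown. Pck1 and Pck2 encode enzymes of the same reaction and moved in opposite directions in BAT. Aqp7 fell beside Pck1, as did Gpd1, Gpd2 and Gk. Each run holds the 250 bases before the start of an annotated transcript, 5′ to 3′ on the strand of the gene, from RefSeq on GRCm38.p6, and capitals mark motif matches.
Pck1, chr2:173152823-173153072, plus strand: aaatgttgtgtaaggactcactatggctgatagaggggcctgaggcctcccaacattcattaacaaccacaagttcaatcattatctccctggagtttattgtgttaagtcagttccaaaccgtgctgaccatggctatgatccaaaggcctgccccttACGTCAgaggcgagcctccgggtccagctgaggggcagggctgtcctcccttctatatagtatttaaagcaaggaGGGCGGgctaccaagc
Pck2, chr14:55540016-55540265, plus strand: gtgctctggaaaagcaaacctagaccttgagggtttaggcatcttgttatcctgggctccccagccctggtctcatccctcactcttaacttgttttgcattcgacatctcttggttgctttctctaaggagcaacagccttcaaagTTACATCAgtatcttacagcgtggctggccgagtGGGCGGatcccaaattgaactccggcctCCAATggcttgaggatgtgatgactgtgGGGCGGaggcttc
Aqp7, chr4:41047963-41048212, minus strand: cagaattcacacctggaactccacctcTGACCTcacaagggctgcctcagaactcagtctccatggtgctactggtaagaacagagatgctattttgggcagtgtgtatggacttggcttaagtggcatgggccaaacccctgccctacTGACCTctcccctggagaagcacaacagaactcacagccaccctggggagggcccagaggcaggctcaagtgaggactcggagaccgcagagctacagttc
On both strands, 6 motifs were searched: the cAMP response element core (ACGTCA), the nuclear receptor half-site (AGGTCA), the CCAAT box (CCAAT), the TATA box (TATAAA), the GC box (GGGCGG) and an ATF4 composite site (TGATGNAA). The Pck1 window held the cAMP response element core at -91, counted from the start, and a GC box at -16. In the Pck2 window, the capitals mark the ATF4 composite site, read on the opposite strand, at -103, a CCAAT box at -41 and GC boxes at -69 and -13. Both capital runs of the Aqp7 window shown are the nuclear receptor half-site on the opposite strand, at -223 and -101. The other Aqp7 window, before the start of another transcript, overlaps it at chr4:41048137-41048386 and held 1 half-site, at -49 from its own start. Of 32851 windows of this length, 6.47% held the cAMP response element core, 3.45% the ATF4 composite site, 14.0% the half-site, 33.8% the CCAAT box, 32.7% the GC box and 12.4% the TATA box. No matches overlapped each other in these windows, and a match describes letters and not binding. Windows were matched for 6 of the 7 genes, and Gpd2, like Aqp7, had more than 1. Of the windows not shown, that of Gk held GC boxes at -114, -73 and -13. That of Aqp3 held a TATA box at -29 and a GC box at -73. For Gpd2, 1 window held a GC box at -134 and the other held no match. The starts behind the Pck2 window and both Aqp7 windows lie inside the loci given next.

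On GRCm38.p6, RefSeq places Pck1 on chromosome 2 from 173153073 to 173159274 and Pck2 on chromosome 14 from 55540263 to 55550020. Gpd1 lies on chromosome 15 from 99717587 to 99725014, and Gpd2 on chromosome 2 from 57237678 to 57370719. Gk lies on chromosome X from 85701937 to 85776819. The aquaporin genes are close together on chromosome 4, Aqp7 from 41033074 to 41048237 and Aqp3 from 41092724 to 41098183.

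Pgam1, the targeted gene, was compared first. Its mean and SD over 4 arrays were 7.94 ± 0.10 for BAT controls against 6.20 ± 0.17 for Adipo-Pgam1 KO mice. For gWAT they were 5.36 ± 0.29 among controls, but 6.31 ± 0.25 among the arrays labelled Adipo-Pgam1 KO, which is against the label, and each gWAT direction below rests on that label and would turn with it. Both Pgam1 probes were lower in BAT KO arrays (-1.74 and -1.65) and higher in the gWAT arrays labelled KO (0.95 and 1.02). The floxed exons are not named in the sources used here, so whether the probes lie in the deleted sequence is not known. The arrays lay on 3 slides. In BAT, 3 controls lay on 1 slide and the other control shared a slide with all KO arrays, and in gWAT the remaining slide likewise held 1 control with all arrays labelled KO. The other gWAT controls lay on the slide of the BAT KO arrays. The slide with the gWAT arrays labelled KO was scanned on day 2 and the others on day 1, so slide and scan day cannot be told apart in gWAT. The 75th percentile lay between 401.3 and 451.3 in BAT controls and between 570.3 and 916.2 on the other arrays. Adipocyte markers marked both tissues, with all 7 well above background on every array. All 9 brown adipocyte markers were well above background on every BAT array, whereas Ucp1 and Zic1 were so on no gWAT control array. The exact permutation test of 4 arrays against 4 cannot give a two-sided p below 0.0286.

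In BAT of Adipo-Pgam1 KO mice, Pck1, Gpd1, Gpd2, Gk and Aqp7 were lower and Pck2 was higher than in littermate controls. All 6 that were tested had an adjusted p under 0.05 by limma, 5 of them lower and 1 higher, against 61.5% of all genes tested in BAT, so that the number of calls is read against a background in which most genes were called. Of all genes tested, 34% were called lower and 27.5% higher. The median log2 change of the 6 genes was -1.22, whereas that of all genes was -0.081. In none of the 6 did the groups overlap, as in 57.1% of all genes tested.

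**Figure D1:**
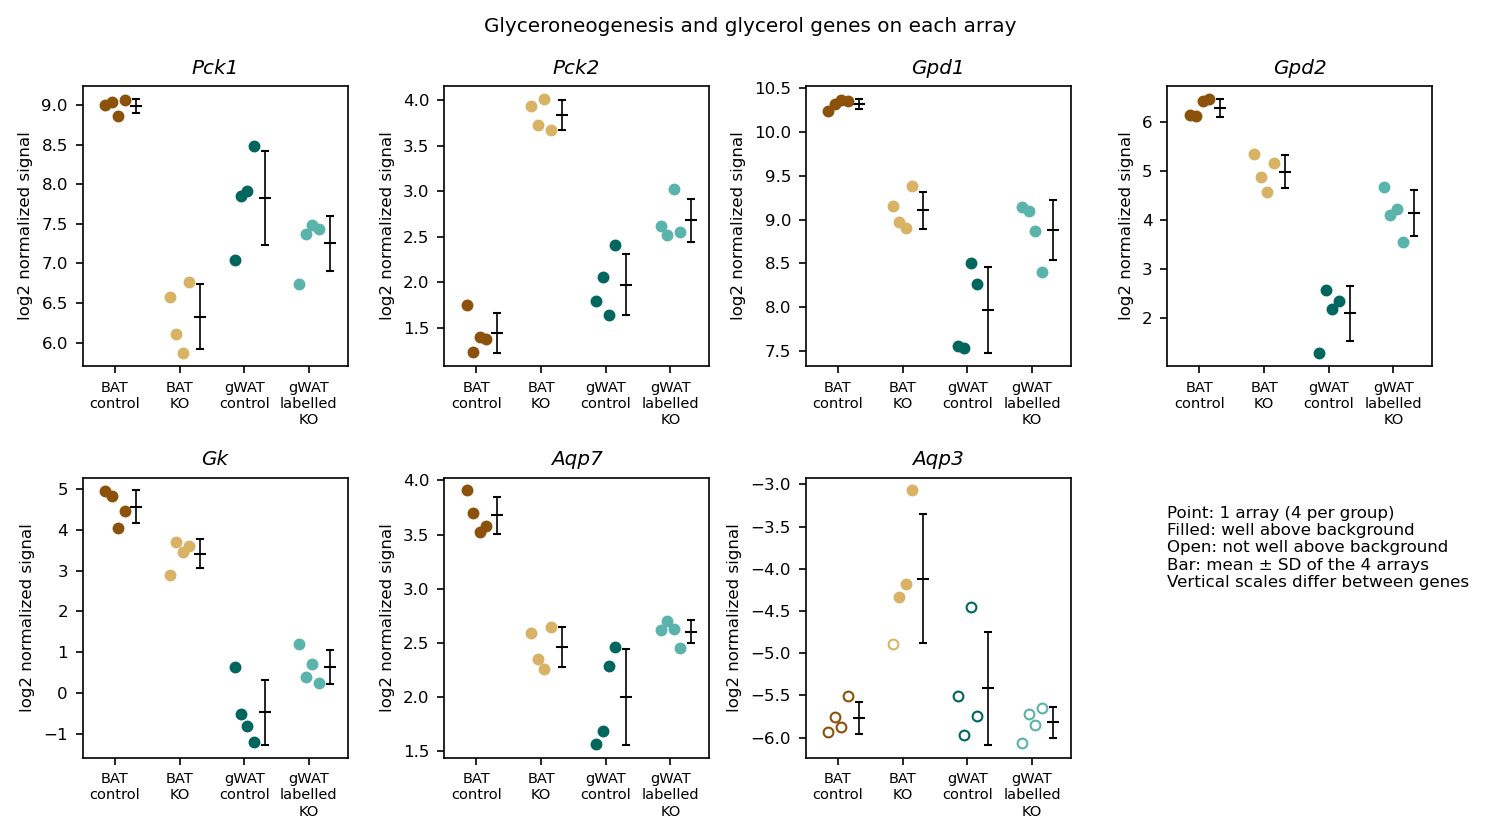
Normalized log2 signal of the 7 genes on each of the 16 arrays, by tissue and genotype; points are arrays, open where the probe was not well above background, and bars give the mean and SD of 4 arrays. In BAT the KO arrays lie below the controls for Pck1, Gpd1, Gpd2, Gk and Aqp7 and above them for Pck2, and in gWAT the arrays labelled KO lie above the controls without overlap for Pck2 and Gpd2.

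Pck1, the enzyme that commits carbon to glyceroneogenesis in the cytosol, was at 9.0, 9.05, 8.86 and 9.06 in the BAT controls. In the KO arrays it was at 6.58, 6.11, 5.86 and 6.76. The lowest control thus lay far above the highest KO array. The log2 change was -2.66 (standard error, SE, 0.19; limma adjusted p = 1.51e-05), which is 0.158 of the control level.

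Pck2, which catalyses the same reaction in mitochondria, went the opposite way. It was at 1.75, 1.24, 1.40 and 1.37 in controls and at 3.94, 3.73, 4.02 and 3.68 in Adipo-Pgam1 KO mice. Every KO array lay above every control, and the log2 change was 2.40 (SE 0.14, limma adjusted p = 7.26e-06), a 5.29-fold higher level. A dimmer probe of Pck2 changed by 2.77. The difference between the changes of Pck1 and Pck2 was not tested.

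Gpd1, which reduces dihydroxyacetone phosphate to glycerol-3-phosphate, was at 10.24, 10.32, 10.37 and 10.36 in BAT controls and at 9.16, 8.97, 8.91 and 9.38 in KO arrays. The groups were well separated, with a log2 change of -1.22 (SE 0.12, limma adjusted p = 5.40e-05) or 0.430 of the control level. Its brightest probe reached 64.8% to 66.8% of the scanner's ceiling in controls, and under quantile normalization its change was -0.18 and not past the threshold. The dimmer Gpd1 probe, at no more than 1.02% of the ceiling, changed by -1.62.

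Gpd2, which returns glycerol-3-phosphate to dihydroxyacetone phosphate at the mitochondrial inner membrane, was at 6.15, 6.12, 6.44 and 6.46 in controls. KO arrays gave 5.35, 4.88, 4.57 and 5.16, all below the controls. Its log2 change was -1.30 (SE 0.18, limma adjusted p = 2.93e-04), 0.406 of the control level, and its other probe changed by -1.24.

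Gk, which phosphorylates free glycerol, was at 4.94, 4.83, 4.04 and 4.45 in BAT controls and at 2.90, 3.71, 3.44 and 3.60 in KO arrays. The gap between the groups was narrower than for the other genes, and the log2 change was -1.15 (SE 0.24, limma adjusted p = 0.00290). The Gk call was lost with the slide as a fixed block (change -1.04, adjusted p = 0.0642) and under spike-in scaling (change -0.61, adjusted p = 0.0576).

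Aqp7, the main glycerol channel of adipocytes, was at 3.91, 3.70, 3.52 and 3.58 in BAT controls and at 2.59, 2.35, 2.25 and 2.64 in Adipo-Pgam1 KO mice. No KO array reached the control range, and the log2 change was -1.22 (SE 0.13, limma adjusted p = 8.08e-05), 0.429 of the control level. The other Aqp7 probe changed by -1.03.

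Aqp3, an aquaglyceroporin better known from skin and kidney, was near the limit of detection. Its only probe was well above background on none of the control arrays of either tissue, on 3 of 4 BAT arrays of Adipo-Pgam1 KO mice and on none of the gWAT arrays labelled KO, so it was not tested in limma. In BAT it read -5.93, -5.76, -5.88 and -5.51 in controls and -4.89, -4.33, -4.18 and -3.07 in KO arrays, without overlap (two-sided exact permutation test, p = 0.0286). No fold is given, because the mean of the KO arrays did not exceed the bound set by the dimmest probes above background in controls.

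Against the control on their own slide, the BAT KO arrays differed by -2.73 for Pck1, 2.47 for Pck2, -1.25 for Gpd1, -1.47 for Gpd2, -1.04 for Gk and -1.12 for Aqp7. Cell markers moved with these changes. Of the 7 adipocyte markers 6 were lower in BAT of Adipo-Pgam1 KO mice, and their summed linear level was 757.5 to 1044 against 2308 to 2536 in controls. Of 9 brown adipocyte markers 7 were lower, with sums of 1435 to 2365 against 4368 to 4727. Macrophage markers were higher for 8 of 9, with sums of 85.5 to 121.7 against 18.9 to 28.1, and fibroblast and preadipocyte markers for 6 of 7, with sums of 234.4 to 336.0 against 127.7 to 174.2. The part of these markers in the changes of the glycerol genes was not tested, and in whole tissue fewer adipocytes and less RNA per adipocyte cannot be told apart.

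In gWAT, the arrays labelled Adipo-Pgam1 KO had higher Gpd2, Gpd1 and Pck2 than littermate controls, while Pck1, Gk and Aqp7 did not pass the threshold. Thus 3 of the 6 genes tested were called, all higher, against 17.8% of all genes tested in gWAT, where 9.99% were called higher and 7.85% lower in the arrays labelled KO. Their median log2 change was 0.81, and that of all genes was 0.047. The groups did not overlap for Pck2 and Gpd2, against 24.2% of all genes tested.

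Gpd2 gave the clearest difference. It was at 1.28, 2.57, 2.19 and 2.36 in gWAT controls and at 4.68, 4.11, 4.23 and 3.55 in the arrays labelled KO. All of the latter were above all controls, with a log2 change of 2.04 (SE 0.32, limma adjusted p = 0.00622), a 4.12-fold higher level, and 2.43 with the other probe. The Gpd2 call held when any single array was left out, with changes from 1.77 to 2.24.

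Gpd1 was at 7.56, 7.54, 8.51 and 8.27 in gWAT controls and at 9.15, 9.09, 8.87 and 8.40 in the arrays labelled KO. The lowest array labelled KO lay within the control range. The change was 0.91 (SE 0.27, limma adjusted p = 0.0469), and 1.58 with the other probe. Its call was lost without control replicate 1 (0.78), 2 (0.77) or 4 (1.01), and without labelled KO replicate 1 (0.82), 2 (0.84) or 3 (0.91).

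Pck2 was at 1.80, 2.06, 1.64 and 2.41 in gWAT controls and at 2.62, 2.53, 3.02 and 2.55 in the arrays labelled KO, the lowest of which lay just above the highest control. Its change was 0.71 (SE 0.20, limma adjusted p = 0.0402), a 1.63-fold higher level. With the other Pck2 probe it was 0.53 and not past the threshold (adjusted p = 0.0816). The call was also lost without control replicate 1 (0.65), 2 (0.73) or 3 (0.59), and without labelled KO replicate 1 (0.73), 2 (0.76) or 3 (0.59).

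Pck1 was at 7.04, 7.86, 7.91 and 8.48 in gWAT controls and at 6.74, 7.37, 7.49 and 7.43 in the arrays labelled KO, so the groups overlapped. The difference of -0.57 (95% interval -1.25 to 0.12, adjusted p = 0.217 in limma) did not pass the threshold, but did under quantile normalization (-0.88, adjusted p = 0.0448).

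Gk was at 0.65, -0.52, -0.82 and -1.21 in gWAT controls and at 1.20, 0.39, 0.72 and 0.25 in the arrays labelled KO. Only the first of these controls lay among the arrays labelled KO. The difference was 1.11 (95% interval 0.24 to 1.99, adjusted p = 0.0779 in limma), and it passed when control replicate 1 was left out (1.49, adjusted p = 0.0141).

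Aqp7 was at 1.56, 1.68, 2.29 and 2.46 in gWAT controls and at 2.61, 2.70, 2.63 and 2.45 in the arrays labelled KO. Only the last value of each group overlapped, and the difference was 0.60 (95% interval 0.12 to 1.09, adjusted p = 0.0802 in limma). The other Aqp7 probe gave -0.094 (adjusted p = 0.741), so the probes disagreed in gWAT. Aqp3 read between -6.06 and -4.45 on the gWAT arrays, and none of them was well above background.

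In gWAT the slides also differed in scan day, and a fixed slide block rests on the single control that shared a slide with the arrays labelled KO. A call lost with that block therefore cannot be told apart from a loss of precision. With the slide as a random block, the correlation within slides was 0.012. Against the single control on their slide, the arrays labelled KO differed by -1.23 for Pck1, 0.27 for Pck2, 0.61 for Gpd1, 1.79 for Gpd2, 1.84 for Gk and 0.14 for Aqp7, and with the slide as a fixed block none of the 6 genes passed. Of the 9 brown adipocyte markers, 6 were tested in gWAT and 5 moved with Gpd2 and Gpd1, being higher, whereas Ppargc1a did not pass (-0.52, limma adjusted p = 0.365). Ucp1, Dio2 and Zic1 were not tested there. The sums of the markers were 129.0 to 332.6 against 26.7 to 62.6 in controls. Among the higher markers, Elovl3 changed by 4.35 (limma adjusted p = 0.0219) and Otop1 by 4.24 (limma adjusted p = 0.00264). Cidea changed by 3.41 (limma adjusted p = 0.00126) and Cox7a1 by 2.18 (limma adjusted p = 0.00708). These changes had the same direction as that of Pgam1 on these arrays. Macrophage markers were higher for 3 of 9, with sums of 52.8 to 202.7 against 37.5 to 51.9. Of the 7 adipocyte markers Adipoq (-0.89, limma adjusted p = 0.0235) and Retn (-0.95, limma adjusted p = 0.0130) were lower and the adipocyte sums overlapped, at 1846 to 2475 against 2167 to 3429. The part of these markers was not tested.

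The genotype change itself differed between the tissues for all 6 genes tested, against 48.3% of all genes in the same interaction test over the 16 arrays, with 27.4% of all genes more positive in gWAT and 21% more negative. The change of Gpd2 was 3.34 (SE 0.39, limma adjusted p = 2.40e-05) more positive in gWAT than in BAT. The difference was 2.27 for Gk (SE 0.49, limma adjusted p = 0.00170), 2.13 for Gpd1 (SE 0.31, limma adjusted p = 9.28e-05) and 1.82 for Aqp7 (SE 0.26, limma adjusted p = 7.67e-05). Of these 4 genes, which fell in BAT, only Gpd2 and Gpd1 passed in gWAT. The difference of Gpd1 was 0.98 under quantile normalization and 3.20 with its other probe, and that of Aqp7 was 0.93 with its other probe, all past the threshold. For Pck1, which fell in BAT and did not pass in gWAT, the difference was 2.10 (SE 0.38, limma adjusted p = 4.95e-04), or 1.20 under quantile normalization. Pck2 was called higher in both tissues, although its gWAT call was lost under 14 of 27 alternatives. Its change was 1.70 smaller in gWAT (limma contrast -1.70, SE 0.24, adjusted p = 9.38e-05). With the slide as a fixed block, the difference of Pck1 was 1.51 and no longer past the threshold (adjusted p = 0.0663), and the other 5 genes passed. The sizes depend on the gWAT label. With the sign of the gWAT change turned, an alternative chosen after seeing the data, Pck1 (3.23) and Pck2 (-3.11) passed in the same direction, whereas Gpd1 (0.31, adjusted p = 0.431), Gk (0.039, adjusted p = 0.956), Aqp7 (0.62, adjusted p = 0.0594) and Gpd2 (-0.74, adjusted p = 0.129) did not pass in limma.

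**Figure D2:**
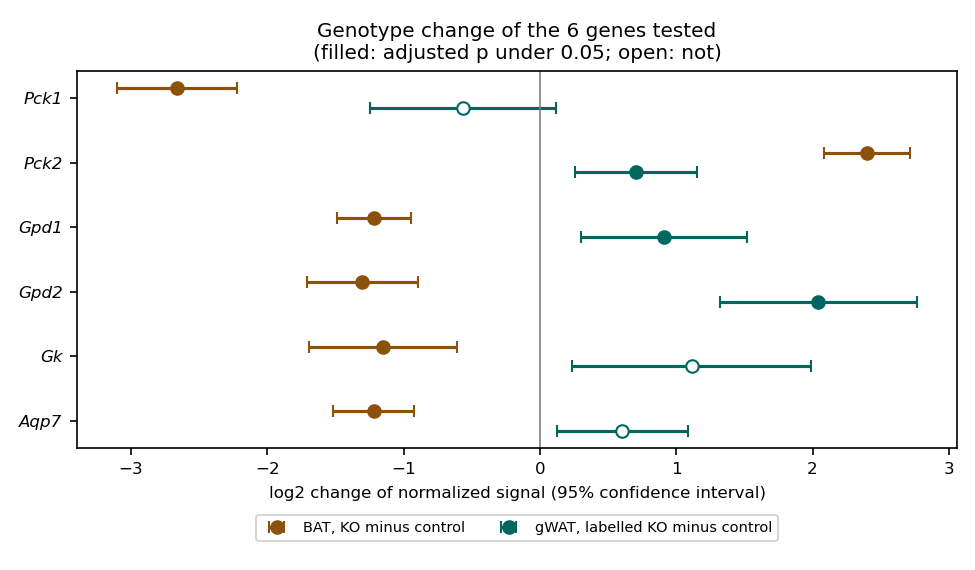
Log2 genotype change of the 6 genes tested, with 95% confidence intervals from limma, in BAT and in gWAT; filled points passed an adjusted p of 0.05. In BAT, Pck2 (2.40) stands to the right of 0 and the other 5 to the left, and in gWAT, Pck1 (-0.57) is the only gene with a change below 0.

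In littermate controls, 5 of the 6 genes tested were higher in BAT than in gWAT and Pck2 was lower, all past the threshold, against 64.7% of all genes tested, 35.4% being called higher in BAT and 29.3% lower. Gk differed most, by a log2 difference of 5.04 (SE 0.39, limma adjusted p = 1.05e-05), a 32.9-fold higher level in BAT. Gpd2 was 18.3-fold higher in BAT (log2 difference 4.19, SE 0.26, limma adjusted p = 3.96e-06) and Gpd1 was 5.12-fold higher (2.36, SE 0.23, adjusted p = 3.49e-05). Aqp7 was 3.21-fold higher (1.68, SE 0.22, limma adjusted p = 1.87e-04), but 0.62 on the log2 scale with its other probe. Pck1 was 2.25-fold higher (1.17, SE 0.27, limma adjusted p = 0.00458), but differed by 0.13 (adjusted p = 0.519) under quantile normalization. In these 5 genes the controls of BAT and gWAT did not overlap, as in 60.8% of all genes tested. Pck2 was lower in BAT by 0.54 (limma difference -0.54, SE 0.19, adjusted p = 0.0349), with overlapping groups. That call was lost under 12 of 26 alternatives, among them leaving out BAT control replicate 2 (-0.47), 3 (-0.52) or 4 (-0.51) or gWAT control replicate 2 (-0.51) or 4 (-0.39).

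Ordered over the 4 groups by their means, Pck1 was highest in BAT controls (8.99 ± 0.092, SD, n = 4), followed by gWAT controls (7.82 ± 0.59), gWAT labelled KO (7.26 ± 0.35) and BAT KO (6.33 ± 0.41), and each neighbouring pair after the first overlapped. Pck2 had the inverse order, from BAT KO (3.84 ± 0.16) over gWAT labelled KO (2.68 ± 0.23) and gWAT controls (1.97 ± 0.34) to BAT controls (1.44 ± 0.22), and only the last pair overlapped. For Gpd1 the order ran from BAT controls (10.32 ± 0.056) over BAT KO (9.10 ± 0.21) and gWAT labelled KO (8.88 ± 0.34) to gWAT controls (7.97 ± 0.49), with overlap between all neighbours but the first pair. Gpd2 had the same order, at 6.29 ± 0.18, 4.99 ± 0.34, 4.14 ± 0.46 and 2.10 ± 0.57, with overlap only between BAT KO and gWAT labelled KO. Gk followed it too, at 4.57 ± 0.41, 3.41 ± 0.36, 0.64 ± 0.42 and -0.47 ± 0.80, but there only the gWAT groups overlapped. Aqp7 stood at 3.68 ± 0.17 in BAT controls, and the other groups, gWAT labelled KO (2.60 ± 0.10), BAT KO (2.46 ± 0.19) and gWAT controls (2.0 ± 0.44), overlapped with their neighbours.

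Across the 16 arrays, which share tissue and genotype groups, Gpd1 and Aqp7 (Pearson r 0.952) and Gpd1 and Gpd2 (r 0.938) ran together, and Pck1 and Pck2 ran against each other (r -0.863). Among 12359 genes above background on all arrays, C1qtnf12 (r 0.981), D2hgdh (0.975) and Sugct (0.972) were most like Pck1. Aldh18a1 (0.964), Cbr3 (0.955) and Rcc2 (0.955) were most like Pck2. Gpd1 ran closest to the mitochondrial genes Atp5a1 (0.988), Mdh2 (0.986) and Uqcrq (0.986), and Gpd2 to Trmt2b (0.989), Txnrd2 (0.988) and Hadha (0.988). Closest to Gk were Dhrs13 (0.980), Esrra (0.976) and Nectin2 (0.974), and closest to Aqp7 were Romo1 (0.976), Higd2a (0.975) and Jak3 (0.973). Aqp3, mostly below background, came closest to H2aw (0.933). After the 4 group means were subtracted, r was 0.790 between Gpd1 and Aqp7, 0.542 between Gpd1 and Gpd2 and 0.302 between Pck1 and Pck2. These correlations describe the arrays and were not tested.

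The genes around the 7 were counted by lists, here and in the next paragraphs. The counts are read against all genes tested, of which 34% were called lower and 27.5% higher in BAT. In gWAT 9.99% of all genes tested were called higher and 7.85% lower. Of 15 genes of the steps to and from phosphoenolpyruvate, Pgam1 among them, 9 were lower and 4 higher in BAT of Adipo-Pgam1 KO mice, with a median of -0.66 against -0.081 over all genes. The counts followed the scaling, with 4 lower and 5 higher (median -0.14) under quantile normalization, 5 and 4 (-0.043) with normexp added to it, and 5 and 5 (-0.12) under spike-in scaling. On the way from oxaloacetate to glycerol-3-phosphate, Eno1 changed by -0.79, Pgk1 by -0.66, Gapdh by -0.70 and Tpi1 by -0.91, although Pgk1 was at 0.10 and Gapdh at 0.29 under quantile normalization. Pcx, which carboxylates pyruvate to oxaloacetate, changed by -1.22 (SE 0.16, limma adjusted p = 2.49e-04). Slc25a11, the oxoglutarate carrier, changed by -1.04. The 4 genes called higher encode 2 aspartate and glutamate carriers, Slc25a12 and Slc25a13, and the aspartate aminotransferases Got1 (1.83) and Got2 (1.05). Slc25a12 changed by 2.57 (SE 0.19, limma adjusted p = 1.83e-05). Slc25a13 was not well above background on any control array and entered the test only through the KO arrays. For it only a bound is given, at least 1.94-fold higher. In gWAT, 9 of the 15 were higher in the arrays labelled KO and none was lower, with a median of 0.77. Got1 (1.65), Gapdh (1.47) and Eno1 (1.35) changed most. The interaction did not pass for Got1 (-0.17, 95% interval -1.28 to 0.93, adjusted p = 0.808 in limma) or Got2 (0.014, 95% interval -0.44 to 0.47, adjusted p = 0.963).

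Of 12 genes of the path from glycerol-3-phosphate to triglyceride, with a phosphatase, Pgp, that hydrolyses glycerol-3-phosphate, 8 were lower in BAT of Adipo-Pgam1 KO mice and none was higher, with a median of -0.81. Under spike-in scaling 6 were lower and 2 higher (median -0.27). Dgat2, which makes triglyceride, changed by -2.42 (SE 0.14, limma adjusted p = 7.62e-06), Gpat4, a glycerol-3-phosphate acyltransferase, by -1.76 and Agpat2, which acylates lysophosphatidic acid, by -1.18. In gWAT, 3 were higher, Agpat2 (1.1), Agpat3 (0.67) and Dgat2 (0.63), and Gpat3 was lower (-0.88), with a median of 0.25. All 11 genes of the list for release of glycerol from triglyceride were lower in BAT, with a median of -1.06, although Abhd6 was at 0.23 under spike-in scaling. Ces1d, a triglyceride hydrolase, changed by -3.18 (SE 0.29, limma adjusted p = 3.87e-05), Cidec, a lipid droplet protein, by -2.40 and G0s2, which inhibits adipose triglyceride lipase, by -2.38. The list thus holds both enzymes and inhibitors of lipolysis, and Plin1, Cidec and Lipe in it are also among the adipocyte markers counted above. In gWAT, Abhd6 was higher (1.04), Ces1d was lower (-1.13) and the other 9 did not pass, with a median of -0.030 that was 0.41 under spike-in scaling.

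**Figure D3:**
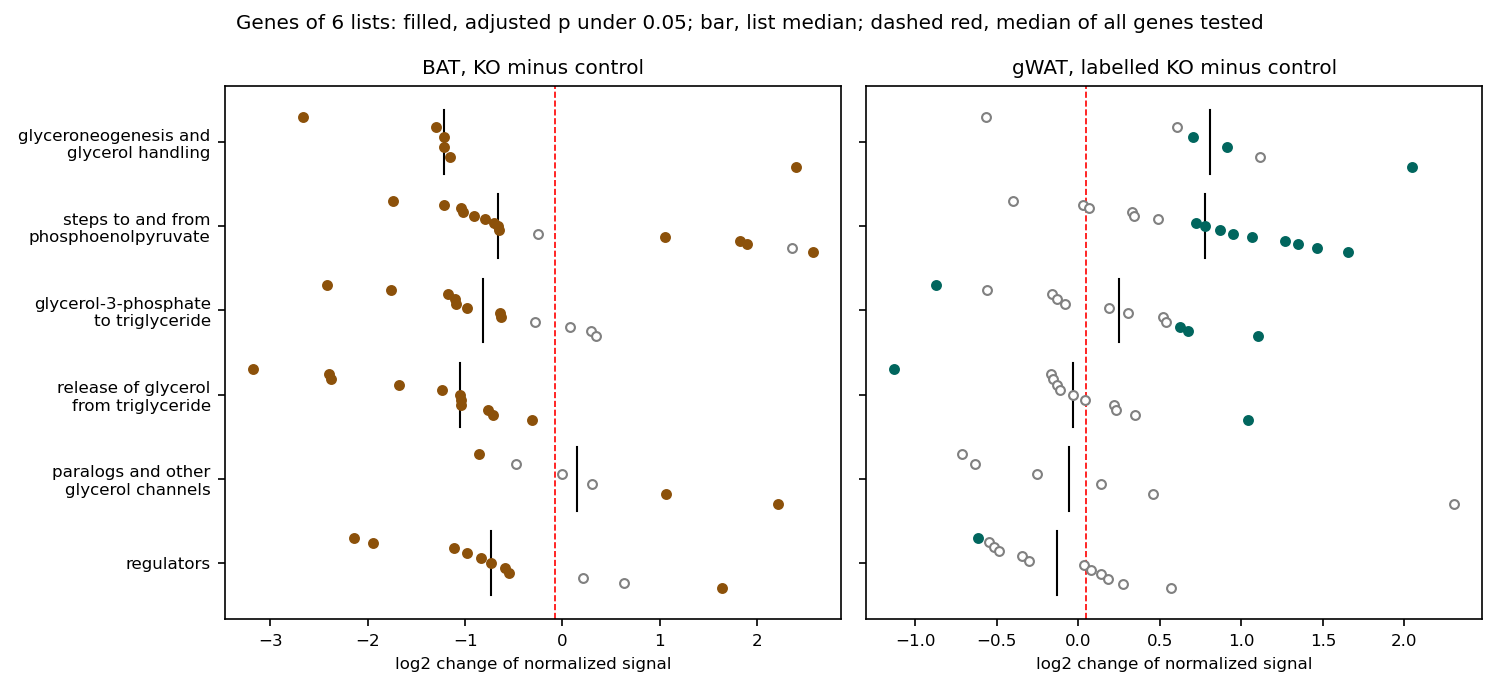
Log2 genotype change of each gene tested in 6 lists, in BAT and in gWAT; filled points passed an adjusted p of 0.05, bars are list medians and the dashed line is the median of all genes tested. In BAT the median of the glyceroneogenesis and glycerol genes is -1.22 and that of the genes for release of glycerol is -1.06, and in gWAT these medians are 0.81 and -0.030.

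Of 6 paralogs and other glycerol channels tested in BAT, 2 were higher and 1 was lower, with a median of 0.15 that was -0.44 under Actb and Rplp0 scaling. Gpd1l, a relative of Gpd1, changed by -0.86 (SE 0.12, limma adjusted p = 3.49e-04). The 2 higher genes, Aqp8 and Aqp5, entered the test only through the KO arrays. They are given without a fold because neither was well above background on any BAT control array, and the median of 0.15 includes them. With normexp background correction their changes were -0.24 and -0.14. None of the 6 tested in gWAT passed. Of 11 regulators tested in BAT, 8 were lower and 1 was higher, with a median of -0.73, but 4 lower and 3 higher (median -0.19) under spike-in scaling. Ppara changed by -2.14, Foxo1, a known activator of Pck1, by -1.95 and Cebpa by -1.11. Atf4, a stress-responsive factor whose composite motif was among those searched, changed by 1.64 (SE 0.18, limma adjusted p = 8.21e-05). Pparg, the main adipocyte regulator, changed by -0.55 (adjusted p = 0.0360 in limma). In gWAT only Creb1 passed among 12 regulators, with a change of -0.61, and their median of -0.13 was 0.31 under spike-in scaling.

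Over all genes, 27.4% changed more positively in gWAT and 21% less by the interaction test. In the interaction, 9 of 15 genes of the steps to and from phosphoenolpyruvate changed more positively in gWAT and 1 less, as did 8 and 1 of 12 from glycerol-3-phosphate to triglyceride, 11 and none of 11 for release of glycerol, 1 and none of 7 paralogs and channels, and 6 and 2 of 12 regulators. The 11 genes for release of glycerol were the only one of these lists in which every gene passed, although 7 of them passed under quantile normalization, with Lpl at -0.065, and 2 with the slide as a fixed block. With the sign of the gWAT change turned, 9 of these 11 were more positive and 1 less, beside 1 and 4 of the 15 and 4 and none of the 12. Between the tissues in controls, 10 of 14 genes of the steps to and from phosphoenolpyruvate were higher in BAT and 2 lower, beside 7 and 1 of 12 from glycerol-3-phosphate to triglyceride and 6 and 1 of 11 for release of glycerol. None of 5 paralogs and channels was higher in BAT and 2 were lower, and of 11 regulators 6 were higher and 3 lower. Aqp9, a channel counted lower, and Slc25a13, counted lower among the steps to and from phosphoenolpyruvate, entered the test only through gWAT. Neither was well above background on any BAT control array, so only bounds are given, at least 9.89-fold and 5.13-fold higher in gWAT. Over all genes tested, 35.4% were called higher in BAT and 29.3% lower.

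**Figure D4:**
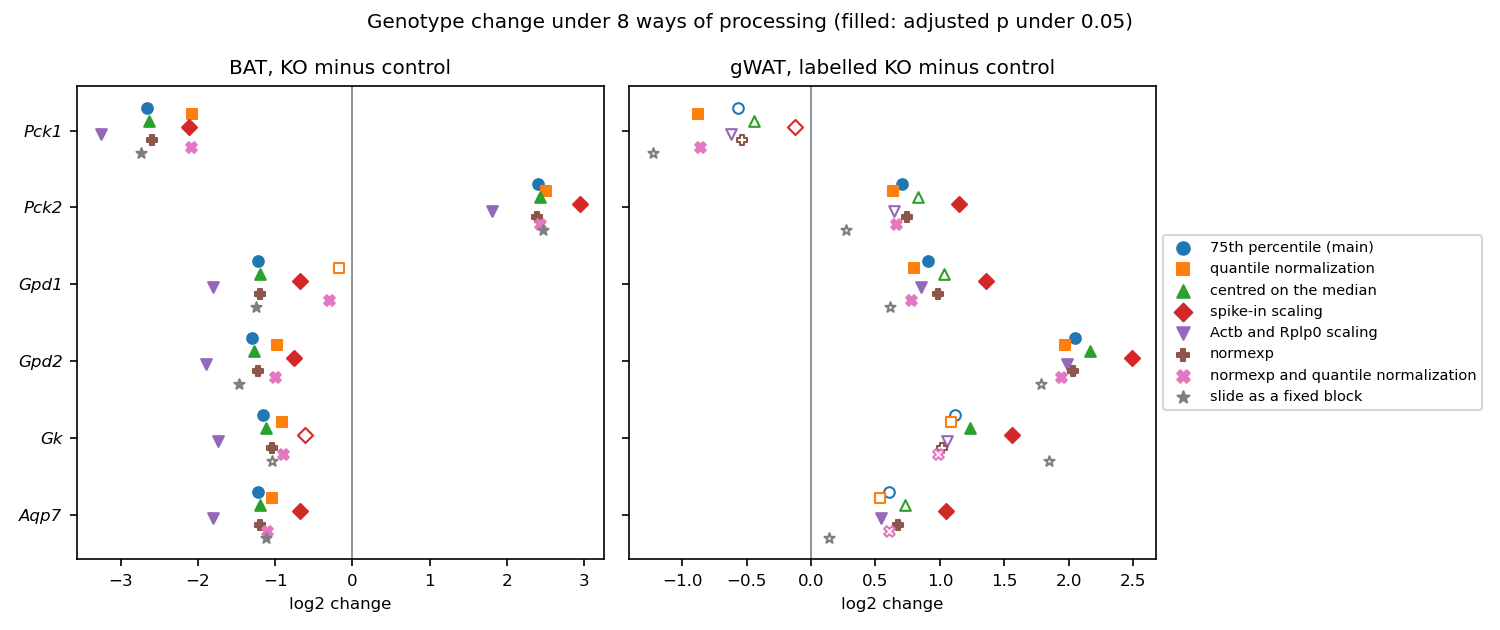
Log2 genotype change of the 6 genes tested, in BAT and in gWAT, under the 75th percentile scaling and 7 alternatives; filled symbols passed an adjusted p of 0.05. In BAT the sign of each gene is the same under all 8, with Gpd1 closest to 0 (-0.18, quantile normalization), and with the slide as a fixed block no gene is filled in gWAT.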

How the data were processed

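Total RNA of BAT and gWAT was labelled with Cy3 and hybridized to Agilent mouse arrays of 1 colour. RNA input was 100 ng by the labels, and the methods state a different amount. Per the file headers, the authors deposited each array's background-subtracted signal intensity from Agilent Feature Extraction 10.7.1.1. They also deposited a table of normalized values, a linear ratio of intensity to the 75th percentile of the array made in GeneSpring, which was within 0.00504 (median log2 difference) of the scaling used here. Genome build and probe positions are not given in the sources used here.

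Here, control spots and outlier spots were left out, replicate spots were averaged by probe, and intensity was expressed as log2 over the array's 75th percentile (401.3 to 916.2). Of 35886 probes with a RefSeq accession, 91.9% were named through RefSeq (GRCm38.p6), giving 22911 genes, each represented by its brightest probe. The share of probes well above background ran from 50.0% to 62.2% by array, and no spot was saturated. Testing required a gene to be well above background throughout 1 or more of the compared groups. limma 3.58.1 in R 4.3.3 compared the genotypes within each tissue, the genotype changes between tissues over 16 arrays, and the tissues in controls, with Benjamini-Hochberg adjustment over all genes and a threshold of 0.05. Single genes were also compared by two-sided exact permutation tests. The code was tested on simulated data. Precision is limited by the number of arrays. The labels describe 4 independent samples per group without tying them to mice across tissues, so p-values measure the spread between these samples. If mice were shared between the tissues, the main tests across tissues left that pairing out.

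The 7 genes and all lists were chosen with earlier results of these data known. All 7 genes were named, and from each list up to 3 genes past the threshold with the largest change in each direction, along with the steps from oxaloacetate to glycerol-3-phosphate. Pparg and Got2 fall outside this rule and were chosen after their values were seen. The cell markers named singly were not all picked by the rule, Cox7a1 among them. The files lack the mean signal column, so normexp (offset 50) used the median signal instead. Alternatives were quantile, median, spike-in (7 probes) and Actb and Rplp0 scaling, normexp, other filters and probes, the authors' values, slide and replicate blocks, array weights, the methods' t-test, and leaving out each array.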

Additional observations from a re-analysis of the deposited data

Results flagged for a closer look

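The change in the arrays labelled Adipo-Pgam1 KO differed between gWAT and BAT by a test of the interaction in limma for each of the 6 glycerol genes tested. The difference, gWAT minus BAT, was 3.34 for Gpd2, 2.27 for Gk, 2.13 for Gpd1, 2.10 for Pck1, 1.82 for Aqp7 and -1.70 for Pck2. Without both arrays of 14-week-old mice, an alternative chosen after seeing the data, all 6 passed again, but with the sign of the gWAT change turned only Pck1 (3.23) and Pck2 (-3.11) did. Pck1 in replicate 1 of the gWAT arrays labelled Adipo-Pgam1 KO, at 6.74, lay apart from the other 3 arrays of its group, with a gap of 0.837 of the range of the group against a critical value of 0.829. It was the only such array among 28 combinations of gene and group, where chance gives about 1 in 20.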

How the results depend on the processing

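In BAT, the sign of all 6 genes was the same under every alternative, and the calls lost were Gpd1 under quantile normalization (-0.18) and Gk under spike-in scaling (-0.61) and the slide block (-1.04). In gWAT, Gpd2 lost its call only with the slide as a fixed block, Gpd1 under 12 and Pck2 under 14 of 27 alternatives, and Aqp7 reversed with its other probe (-0.094). Beside 2525 genes and 3 of the 7 glycerol genes past the threshold in gWAT, the numbers were 1384 genes with median centring, 5086 and 5 with spike-in scaling, 1138 and 1 without the filter, 184 and 0 with the slide as a fixed block, 4040 and 5 with all 16 arrays in 1 fit, 1618 and 1 by the methods' t-test after adjustment (4673 and 5 before), and 4370 and 5 with array weights. Leaving out 1 array gave 1143 to 3237 genes and 1 to 3 of the 7, with 1 left without control replicate 2 or labelled KO replicate 1, 2 or 3. For the interaction, 3265 genes passed with the slide as a fixed block, against 7162, and with the sign of the gWAT change turned, 2 of the 7 glycerol genes passed and Gpd2 reversed (-0.74). The t-test gave 9163 genes in BAT before and 8427 after adjustment. The cause was not tested. Among genes called in BAT, 44.8% were higher in KO mice, but 79.7% under spike-in scaling, 17.7% under Actb and Rplp0 scaling and 31.4% without the filter. In gWAT it was 56%, but 71.0% with median centring, 95.3% under spike-in scaling and 35.9% with the slide block. In the interaction it was 56.6%, but 83.7% under Actb and Rplp0 scaling, and between tissues 54.8%, but 41.9% under spike-in and 70.9% under Actb and Rplp0 scaling. These scalings moved the median of all genes by 0.54 (BAT) and 0.44 (gWAT) for spike-ins and by -0.59 (BAT) for Actb and Rplp0. Whether equal replicate numbers mark the same mouse is not known, and the values do not decide it. Deviations of same-numbered arrays of a tissue correlated between -0.14 and 0.43. Across tissues they correlated at 0.22, 0.16, 0.18 and -0.073 in controls and at 0.11, 0.11, 0.29 and -0.19 in arrays labelled KO. Some arrays, but not all, correlated best with their own number. By the labels, replicate 4 of the KO arrays came from 14-week-old mice in both tissues. The main tests across tissues took the arrays as independent. With the replicate block, 1087 genes passed in gWAT, with Gk (adjusted p = 0.0355) in place of Gpd1 and Pck2, Pck2 was no longer called between tissues (adjusted p = 0.0633), and no other call of the 6 genes changed. Aqp3 is limited by its signal over background.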

Other observations

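Markers of other cell types were measured as summed linear levels. Skeletal muscle markers ranged from 1.75 to 79.2 in BAT of Adipo-Pgam1 KO mice and from 2.30 to 4.07 in BAT controls, and from 29.8 to 58.2 in the gWAT arrays labelled KO and from 3.47 to 24.6 in gWAT controls. The gWAT sums rested mainly on Acta1, whose mean log2 signal was 5.48 in the arrays labelled KO and 3.28 in controls. Each other muscle marker had a mean of -2.64 or lower in the arrays labelled KO. Of the 5 tested in gWAT, 4 had a lower mean there than in controls. Beside the muscle markers, Pgam2, the muscle isoform of phosphoglycerate mutase, had a mean of -1.21 ± 2.32 (SD, n = 4) in BAT of Adipo-Pgam1 KO mice and of -3.57 ± 0.51 in BAT controls, where 3 of 4 arrays were well above background. Endothelial sums were 16.6 to 22.7 in BAT KO arrays and 20.3 to 27.3 in BAT controls. Mesothelial markers summed to at most 0.569 on the BAT arrays and to at least 10.4 on the gWAT arrays. Epithelial sums reached 32.9 in gWAT controls and 7.34 in gWAT labelled KO. Epididymis sums stayed at or below 3.08, B and T cell sums at or below 1.92, and erythrocyte sums ranged from 315.9 to 1337. Of the epithelial, epididymis, mesothelial, erythrocyte and skeletal muscle markers tested in gWAT, none passed the threshold.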
